A study of Mus musculus with 14 samples.

Results

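The MHC class II genes and their transactivator were followed in bulk RNA-seq of CT26 tumors. The members were chosen by name, 10 of the 53801 genes in the files: *Ciita*, the class II α and β chain genes *H2-Aa*, *H2-Ab1* and *H2-Eb1*, the peptide exchange genes *H2-DMa*, *H2-DMb1* and *H2-DMb2*, their inhibitors *H2-Oa* and *H2-Ob*, and the invariant chain gene *Cd74*. The rule names genes and uses no measured value, but the members were chosen with earlier results of these data known. All 10 had enough counts to be tested.

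CT26 is a colorectal carcinoma line of BALBc mice, which was barcoded and transplanted under the skin of both flanks of female BALBc mice aged 6 to 8 weeks. Mice received either control IgG or anti-PD-1, an antibody against the PD-1 receptor of T cells. Dosing began on day 7, was given every 3 days for 5 doses, and ended 3 days before the tumors were harvested. The 14 tumors came from 11 mice. Control IgG was given to 4 mice with 5 of the tumors. Among the tumors under anti-PD-1, 5 were responders, taken from 4 mice, and 4 were non-responders, taken from 3. Mice were read from the tumor numbers, and p-values treat every tumor as a replicate. All tumors started from the same barcoded pool of cancer cells, their clones at harvest were not analysed here, and no group was untransplanted or untreated. The authors sorted anti-PD-1 tumors into responders and non-responders by their final size, so response and tumor size cannot be told apart here. Each tumor was harvested whole, and a change in the number of cells that express a gene cannot be told apart from a change in its RNA per cell.

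MHC class II molecules are pairs of an α and a β chain that carry peptides from endocytosed proteins to the cell surface, where CD4+ T cells read them. Dendritic cells, B cells, and many macrophages make them constitutively, and interferon-gamma induces them in other cells by switching on *Ciita*. CIITA does not bind DNA itself, but docks on a complex of RFX, CREB, and NF-Y proteins that sits on the X and Y boxes of class II promoters. The invariant chain fills the groove of a new class II molecule, H2-DM later exchanges the last piece of it for a peptide, and H2-O restrains H2-DM.

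Of the members, 8 lie within 224.3 kb of chromosome 17 (mm10, 34092340 to 34316674), the H2 region. *Ciita* lies on chromosome 16 (10480059 to 10528418), and *Cd74* on another chromosome. The RefSeq promoter table (GRCm38.p6, the assembly of mm10) held 8 windows for 7 of the 10 members, with none for *Ciita*, *H2-Ab1* or *Cd74*. Short stretches of 80 bases upstream of the RefSeq start are printed for 5 members to show the X and Y boxes that they share. Capitals mark the X box pieces (AGCAAC in some promoters, ACNGATG in others) and the Y box core ATTGG, read 5′ to 3′ on the strand of the gene. In *H2-Aa* they mark the X2 piece TGACG, which is counted here with the X pieces.
H2-Aa, chr17:34287854-34287933, minus strand: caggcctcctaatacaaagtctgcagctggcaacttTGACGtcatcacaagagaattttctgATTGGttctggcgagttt
H2-Eb1, chr17:34305757-34305836, plus strand: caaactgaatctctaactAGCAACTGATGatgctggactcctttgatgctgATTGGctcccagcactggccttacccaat
H2-DMb2, chr17:34145109-34145188, plus strand: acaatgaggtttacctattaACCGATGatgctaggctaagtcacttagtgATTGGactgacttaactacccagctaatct
H2-Oa, chr17:34092261-34092340, plus strand: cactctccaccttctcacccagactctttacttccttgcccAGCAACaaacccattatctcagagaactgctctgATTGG
H2-Ob, chr17:34238795-34238874, plus strand: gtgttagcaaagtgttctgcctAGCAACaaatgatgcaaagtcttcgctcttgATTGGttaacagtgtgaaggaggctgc

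In these stretches the first X piece, AGCAAC or ACNGATG, began 30 to 34 bases before the first base of ATTGG. *H2-Aa* was the exception, with the X2 piece TGACG 26 bases before it. In *H2-Eb1* the pieces AGCAAC and ACNGATG overlap by their AC. The same order was found in *H2-DMb1*, with ACNGATG 30 bases before ATTGG, and its stretch is not printed because it lies in an annotated exon. Neither window of *H2-DMa* held it. An X piece 25 to 35 bases before ATTGG was thus present in 6 of the 8 member windows, against 0.304% of all 32851 windows of 250 upstream bases, and that spacing was chosen after the matches were seen. On both strands, AGCAAC was in 12.2% of all windows, ACNGATG in 8.31%, TGACG in 17.8%, and ATTGG in 33.8%. The longer Y box CTGATTGG, which contains ATTGG, was in 3.83% of all windows and in those of *H2-Aa*, *H2-Eb1*, and *H2-Oa*. A match of the interferon-gamma site TTCNNNGAA was seen in the member windows of *H2-DMb2* alone (7.02% of all windows), and GAAANNGAA, the interferon-stimulated response element, in none (7.13%). Matches are letters in the C57BL/6 reference, and whether the BALBc promoters hold the same letters was not tested.

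Expected counts, RSEM's estimates of the fragments from each gene, totalled 33237744 to 48481461 per tumor, and CPM values are those counts scaled to library size with TMM factors. Tests were made with edgeR's quasi-likelihood method over 16287 genes in a single fit of all 14 tumors, with Benjamini-Hochberg adjustment. The mean fragment length did not overlap between responders (269.5 to 277.0 bases) and non-responders (277.5 to 287.8). With an offset for gene length the counts of members called in the 3 comparisons were as without it, and the share of this length difference in the results was not tested further. Non-responder 33R, with the longest fragments (287.8 bases), stood apart from the other libraries, with a median chi-square per gene of 188.1 to them, against 39.56 to 111.5 for the other 13. Without 33R, 7 members were called between responders and non-responders, *H2-DMb1* being lost, and 10 between responders and control tumors. Without it *Ciita* had log2 fold changes of 2.01 and 2.08 in these comparisons. Among colon and epithelial markers, *Krt20* averaged 381 ± 54.8 CPM (SD, n = 5) in responders. It averaged 328 ± 118 CPM (SD, n = 4) in non-responders and 276 ± 57.7 CPM (SD, n = 5) in control tumors. *Krt8* and *Krt18* had group means of 4.14 to 13.2 CPM, *Epcam* and *Cdh1* of 2.44 to 6.42 CPM, and *Krt19*, *Cdx2*, and *Vil1* of 0.0501 to 3.87 CPM.

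The first comparison asked which class II genes differed between anti-PD-1 responders and non-responders. Of the 10 members, 8 were higher in responders and none was lower, against 5.08% of all tested genes called higher and 4.82% called lower. Since the members were chosen with earlier results of these data known, such shares describe the set and are not an independent test of it. *Ciita*, all 3 chain genes, all 3 H2-DM genes, and *Cd74* rose, and the inhibitors *H2-Oa* and *H2-Ob* did not pass the test. The median log2 fold change of the members was 1.60, and that of all tested genes was 0.0062. In 9 of the 10 members no responder overlapped a non-responder, as in 6.8% of all tested genes.

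**Figure D1:**
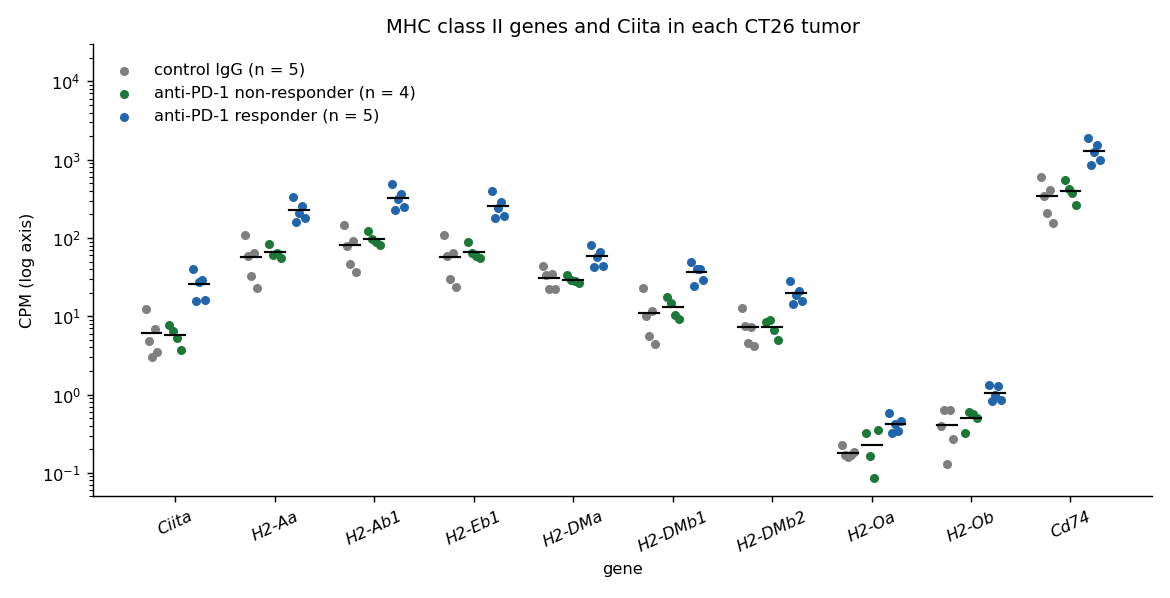
CPM of each member (log axis) in each of the 14 tumors, by group. Points are single tumors and black bars are group means. The 5 responders lie above the 4 non-responders for every gene but H2-Oa, and the control IgG tumors overlap the non-responders for all 10.

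*Ciita*, the master regulator of the pathway, was at 40.4, 15.6, 27.7, 29.4, and 16.0 CPM in responders 24L, 26R, 30L, 30R, and 35L. Non-responders 29L, 32R, 33L, and 33R had 7.65, 6.55, 5.24, and 3.67 CPM. Control IgG tumors 14L, 14R, 16R, 17R, and 20R had 12.5, 4.80, 3.05, 6.87, and 3.52 CPM. Every responder was above every other tumor, and control tumor 14L came closest to them. *Ciita* was 4.45-fold higher in responders than in non-responders (95% interval 2.42 to 8.21, edgeR adjusted p = 0.0102), and 4.22-fold higher than in control IgG tumors (2.41 to 7.39, adjusted p = 0.00336).

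*H2-Aa* and *H2-Ab1* encode the chains of I-A, and *H2-Eb1* the β chain of I-E. *H2-Aa* was at 338, 159, 209.97, 256, and 178 CPM in the responders, in the order above. It was at 84.4, 60.7, 63.9, and 55.8 CPM in the non-responders, and at 110.02, 59.1, 32.2, 64.6, and 22.8 CPM in the control tumors. Its responders stood apart from both other groups, which overlapped each other. The log2 fold change was 1.78 over non-responders (SE 0.37, edgeR adjusted p = 0.0139). *H2-Ab1* was at 482, 224, 315, 364, and 247 CPM in responders. The non-responders had 122, 97.9, 87.7, and 80.5 CPM of it, and the control tumors 148, 79.0, 45.9, 91.7, and 36.6 CPM. These tumors kept nearly the same order for *H2-Ab1* as for *H2-Aa*, with 24L first and 20R last. Its log2 fold change was 1.75 over non-responders (SE 0.35, edgeR adjusted p = 0.0123).

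*H2-Eb1* reached 399, 177, 239, 289.98, and 189 CPM in responders. In non-responders it was at 88.3, 64.1, 58.3, and 55.7 CPM, and in control tumors at 110.16, 59.1, 30.1, 64.1, and 23.8 CPM. The log2 fold change of *H2-Eb1* was the highest among the chain genes, 1.96 over non-responders (SE 0.39, edgeR adjusted p = 0.0119), although the intervals of the 3 chain genes overlap and their differences were not tested. The α chain of I-E is annotated as a polymorphic pseudogene, *H2-Ea-ps*, because C57BL/6 mice lack a working copy, whereas BALBc mice express I-E. *H2-Ea-ps* is no member and was in the pathway list. Responders averaged 167 ± 36.4 CPM (SD, n = 5) and non-responders 53.1 ± 12.5 CPM (SD, n = 4), with a log2 fold change of 1.66 (SE 0.36, edgeR adjusted p = 0.0159).

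*Cd74* (chromosome 18, 60803848 to 60812652, mm10), the invariant chain that accompanies new class II molecules, was the most abundant member. It was at 1885, 855, 1270.3, 1532, and 987 CPM in responders. Non-responders had 547, 426, 378, and 264 CPM, and control tumors 603, 348, 209.7, 414, and 155 CPM. The lowest responder was thus above the highest tumor of both other groups. *Cd74* had a log2 fold change of 1.69 over non-responders (SE 0.36, edgeR adjusted p = 0.0145) and 1.92 over control IgG tumors (SE 0.34, adjusted p = 0.00274).

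*H2-DMa* encodes the α chain of H2-DM, which catalyzes peptide exchange. Responders had 80.6, 42.2, 57.5, 65.7, and 44.2 CPM of *H2-DMa*. Non-responders had 33.6, 28.9, 28.2, and 26.6 CPM, and control tumors 43.4, 33.2, 22.1, 34.9, and 22.4 CPM. Responders were apart from non-responders, while control tumor 14L lay above responder 26R. The change of *H2-DMa* was the smallest among the 8 members called, with a log2 fold change of 0.98 (SE 0.22, edgeR adjusted p = 0.0166).

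*H2-DMb1* and *H2-DMb2* encode alternative β chains of H2-DM and are close copies. Their expected counts were not whole numbers in any of the 14 tumors, so RSEM divided fragments between them, and how a change splits between the pair is uncertain. The other 8 members had whole counts in all tumors. *H2-DMb1* was at 49.8, 24.3, 39.7, 40.4, and 29.2 CPM in responders. It was at 17.6, 14.9, 10.3, and 9.16 CPM in non-responders, and at 23.3, 9.99, 5.62, 11.7, and 4.41 CPM in control tumors. *H2-DMb2* was lower, with 28.3, 14.2, 18.7, 21.3, and 15.8 CPM in responders. Both genes kept the responders above all other tumors. The other tumors had 8.37, 8.89, 6.63, and 4.91 CPM of *H2-DMb2* as non-responders and 12.6, 7.45, 4.57, 7.21, and 4.23 CPM as controls. The log2 fold change over non-responders was 1.496 for *H2-DMb1* (SE 0.40, edgeR adjusted p = 0.0331) and 1.45 for *H2-DMb2* (SE 0.31, adjusted p = 0.0140). The call of *H2-DMb1* was not stable. Its adjusted p was between 0.0553 and 0.0863 when 24L, 30L, 30R, 32R, 33L, or 33R was left out, and 0.053 with the tumors of a mouse summed.

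*H2-Oa* and *H2-Ob*, which form the H2-DM inhibitor H2-O and are known best from B cells and thymus, were close to the limit of detection. *H2-Oa* had 25, 11, 16, 17, and 21 counts in responders, 13, 7, 3, and 11 in non-responders, and 8, 8, 6, 7, and 8 in control tumors. *H2-Ob* had 58, 28, 37, 64, and 39 counts in responders, 13, 26, 20, and 16 in non-responders, and 14, 30, 5, 26, and 12 in control tumors. These counts are not scaled for depth. In CPM, *H2-Oa* overlapped between responders (0.321 to 0.578) and non-responders (0.0850 to 0.348), and *H2-Ob* did not (0.816 to 1.34 against 0.324 to 0.602). The log2 fold change over non-responders was 0.88 for *H2-Oa* (95% interval 0.12 to 1.65, edgeR adjusted p = 0.125) and 1.07 for *H2-Ob* (0.27 to 1.88, adjusted p = 0.0817). *H2-Ob* passed the test when control tumor 16R was left out (adjusted p = 0.0457) and with DESeq2 (0.0333). So did both inhibitors on log2(TPM + 1), on log2(TPM + 0.1), and with mouse as a random effect in limma (adjusted p 0.0174 to 0.0355 for *H2-Oa* and 0.0157 to 0.0396 for *H2-Ob*). The TPM scales also moved the median log2 fold change of all genes, to 0.169 and 0.235. In the random-effect fit the estimated correlation between tumors of a mouse was -0.282, so it did not allow for likeness within a mouse. With the tumors of a mouse summed, neither inhibitor passed.

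The second comparison set the responders against the control IgG tumors, with the same 5 responders as above. All 10 members were higher in responders, against 7.88% of all tested genes called higher and 5.3% called lower. In 9 of the 10 no responder overlapped a control tumor, as in 8.34% of all genes, and the exception was *H2-DMa*. The median log2 fold change was 1.83, from 0.90 for *H2-DMa* to 2.17 for *H2-Eb1*, and that of all genes was -0.0105. *H2-Eb1* was 4.51-fold higher (95% interval 2.64 to 7.70, edgeR adjusted p = 0.00216), *H2-Ab1* 4.07-fold (adjusted p = 0.00194), and *H2-Aa* 3.95-fold (2.36 to 6.62, adjusted p = 0.00274). *H2-DMb1* was 3.34-fold higher (edgeR adjusted p = 0.0083), *H2-DMb2* 2.73-fold (adjusted p = 0.00504), and *H2-DMa* 1.86-fold (adjusted p = 0.0106). For the inhibitors the folds were 2.32 for *H2-Oa* (edgeR adjusted p = 0.0292) and 2.52 for *H2-Ob* (adjusted p = 0.0231). The call of *H2-Oa* was lost without 14R, 16R, 17R, 20R, 24L, or 35L (adjusted p 0.0545 to 0.0821), and that of *H2-Ob* without 20R, 24L, or 30R (0.0554 to 0.0677).

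**Figure D2:**
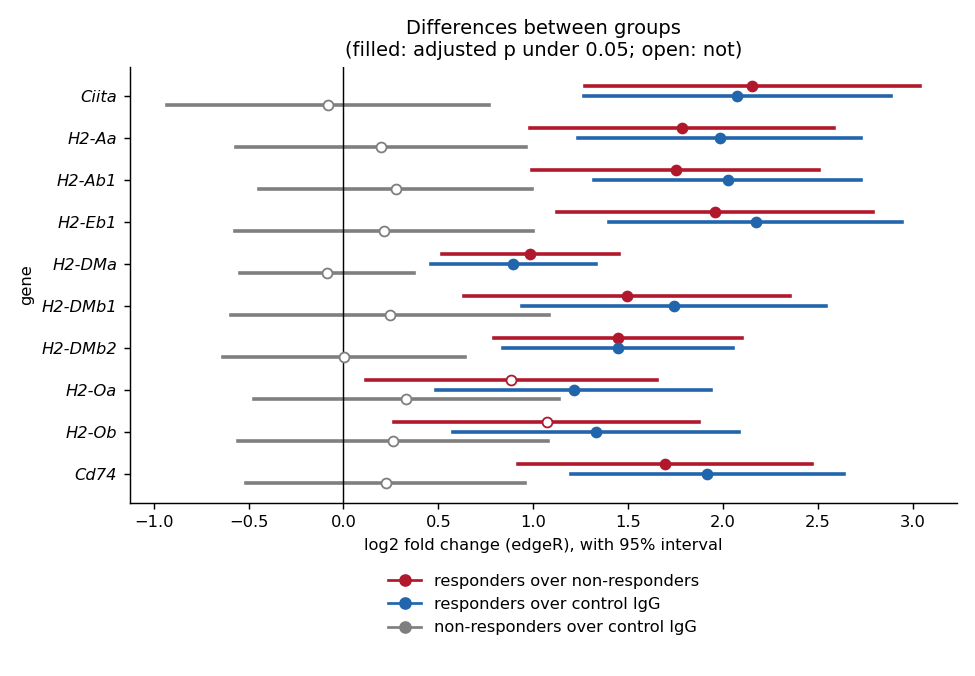
Log2 fold change of each member in the 3 comparisons (x axis), with 95% intervals as lines. Filled points passed the adjusted p threshold of 0.05 and open points did not. In the comparison of non-responders with control IgG tumors all 10 intervals include 0, while in both comparisons with responders all 10 lie above it.

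Non-responders were then compared with the control IgG tumors, both of which also serve above as the reference for responders. None of the members passed the test of edgeR or of DESeq2, and none had an unadjusted p under 0.05 with edgeR, where the smallest was 0.391. edgeR called none of the 16287 genes in this comparison (0%), though 758 had an unadjusted p under 0.05 (4.65%), and DESeq2 called 11 higher and 5 lower. All 10 members overlapped between the groups, and 0.718% of all genes were higher without overlap. The log2 fold changes of the members lay between -0.09 and 0.33, with a median of 0.22. *Ciita* averaged 5.78 ± 1.71 CPM over 4 non-responders (± SD) and 6.14 ± 3.83 CPM over 5 control tumors, with an interval of the log2 difference from -0.93 to 0.77. The interval of *Cd74* was -0.51 to 0.96 and that of *H2-Aa* -0.57 to 0.96. Differences inside these intervals were not detectable with 4 and 5 tumors.

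Some tumors kept their place among the 14 over the members, and others did not. Responder 24L had the highest CPM of all 14 tumors for all 10 members, and 30L was the third for all 10. Non-responder 33R, in contrast, ranked from 4 to 12. The lowest tumor was control 20R for 6 members, control 16R for 3, and non-responder 33L for *H2-Oa*. Summed over the members, the share of all counts averaged 0.234 ± 0.0759% (± SD) over 5 responders. It averaged 0.0671 ± 0.0178% over 4 non-responders and 0.0597 ± 0.0324% over 5 control tumors. Among control tumors this share ranged from 0.0268% to 0.109%. No tumor was far enough from the rest of its group to be an outlier in any of the 30 combinations of member and group.

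Levels between genes were compared in TPM, which is scaled by gene length. *Cd74* had the highest TPM in all 14 tumors, from 179 to 2481. Below it the order was *H2-Ab1*, *H2-Aa*, *H2-Eb1*, *H2-DMa*, and *H2-DMb1*, each above the next in all 14 tumors. *H2-DMb1* was above *H2-DMb2* in 12 tumors. *Ciita* was below *H2-DMb2* in all 14, with a median of 1.73 TPM, and above both inhibitors. *H2-Oa* and *H2-Ob* could not be ordered, since *H2-Oa* was above *H2-Ob* in 7 of 14 tumors. The reads came from BALBc alleles and were aligned to the C57BL/6 genome, and how far that lowers single class II genes was not tested.

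Some proportions between members differed between the responders and the other tumors, and others did not. Relative to *H2-Aa* TPM, *H2-DMa* TPM was 0.152 to 0.189 in responders, 0.258 to 0.333 in non-responders, and 0.264 to 0.647 in control tumors, so the responders were below all other tumors. The ratio of *H2-Eb1* TPM to *H2-Aa* TPM was 0.905 to 0.949 in responders and 0.755 to 0.877 in the others, and the responders were above all of them. In contrast, the ratio of *H2-Ab1* TPM to *H2-Aa* TPM was 1.08 to 1.32 over all tumors, and that of *Cd74* TPM to *H2-Aa* TPM was 3.62 to 5.42, with overlap between all groups. These ratios are given as descriptions, since they were looked at after the fold changes were known.

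The next question was whether *Ciita* and its 9 targets varied together between tumors of the same group. In a fit with the group and *Ciita* log2 CPM as terms, 7 of the 9 targets had a slope on *Ciita* above 0 that passed the test, against 0.203% of the 16286 other genes. The slopes, in log2 units of the target per log2 unit of *Ciita*, were 0.94 for *H2-DMb1*, 0.87 for *H2-Eb1*, 0.85 for *Cd74*, 0.82 for *H2-Aa*, 0.81 for *H2-Ab1*, 0.72 for *H2-DMb2*, and 0.515 for *H2-DMa*. Their edgeR adjusted p-values were 0.00129 to 0.00776. The inhibitors had slopes of 0.17 for *H2-Oa* (SE 0.25, edgeR adjusted p = 0.809) and 0.42 for *H2-Ob* (SE 0.27, adjusted p = 0.595), at few counts. *H2-Ea-ps* also passed, with a slope of 0.80 (SE 0.11, edgeR adjusted p = 0.00776). All slopes share the normalization of each library with *Ciita*.

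**Figure D3:**
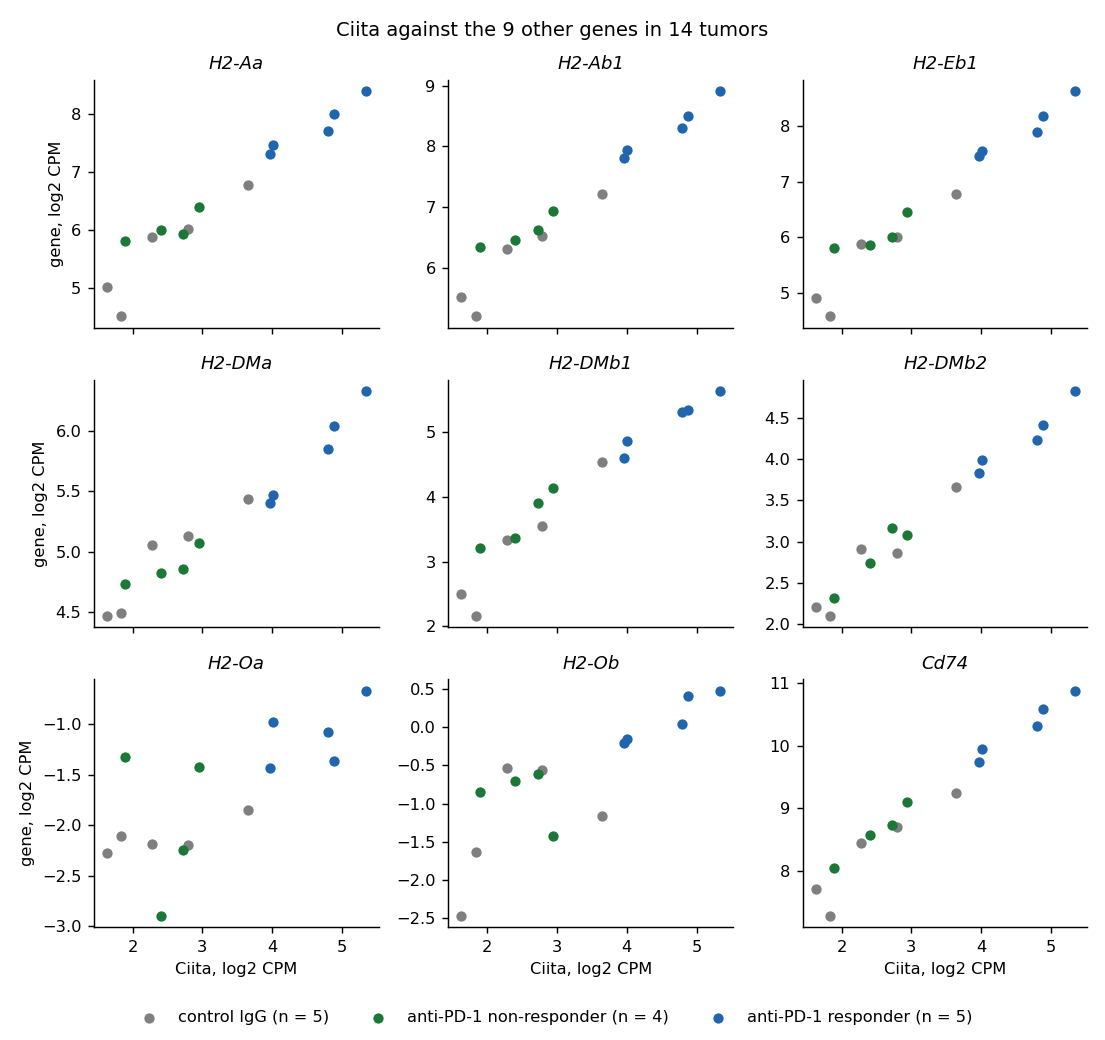
Log2 CPM of the 9 other members (y axes) against log2 CPM of Ciita (x axes), with 1 point per tumor. In 7 panels the points follow a rising line both among the responders and among the 9 other tumors. In those of H2-Oa and H2-Ob they scatter among the 9 other tumors (Pearson's r 0.134 and 0.387). Among the responders H2-Ob rises with Ciita, and H2-Oa does so less regularly. With all tumors pooled, r was 0.729 for H2-Oa and 0.806 for H2-Ob, values that include the difference between groups.

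The correlation was computed on deviations from the group means over the 14 tumors. Among the 7 targets with a slope, Pearson's r was 0.896 to 0.952 and Spearman's rho 0.895 to 0.965, with permutation p-values (100000 resamples within groups, two-sided) of at most 0.00019 for r and 0.00037 for rho over 9 relations. The smallest p that these permutations can give, 1e-05, was reached for *H2-Ab1*, *H2-DMa*, and *H2-DMb1*. Across all tested genes the median r was 0.0378, and the 7 targets had ranks from 3 to 24 among 16286. *H2-Oa* had an r of 0.219 (permutation p = 0.382) and a rho of 0.314 (p = 0.241). *H2-Ob* had an r of 0.482 (permutation p = 0.184) and a rho of 0.499 (p = 0.131). Over the 9 tumors outside the responders alone, r of the deviations was 0.889 to 0.957 for the 7 targets. It was at least 0.874 over the 12 tumors left without 24L and 30R, those farthest from the median of *Ciita*. For *H2-Aa* the call of the slope was lost without control tumor 14L (edgeR adjusted p = 0.083) and without 24L and 30R together (0.0997).

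**Figure D4:**
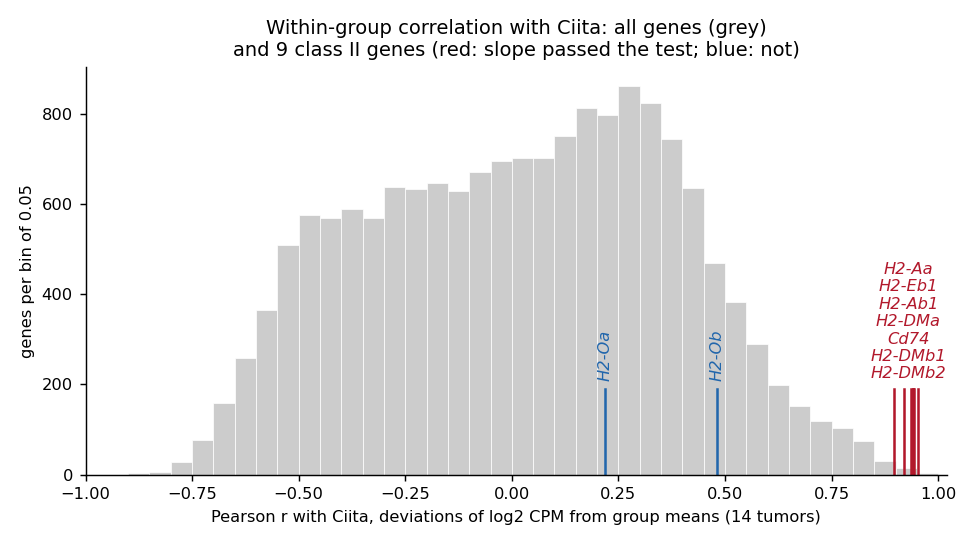
Pearson r with Ciita of all 16286 other genes (grey bars, genes per bin of 0.05), on deviations of log2 CPM from group means over 14 tumors. Red lines mark the 7 targets whose slope passed the test, at 0.896 to 0.952, and blue lines mark H2-Oa at 0.219 and H2-Ob at 0.482.

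Outside the members, the 5 genes most like *Ciita* by Pearson's r of log2 CPM over all 14 tumors were *Tapbpl* (0.982), *Dnase1l3* (0.981), *Slamf8* (0.980), *Tmem229b* (0.980), and *Cyfip2* (0.978), among genes with a mean log2 CPM of at least 1. *Tapbpl* encodes a peptide editor of MHC class I, and *Dnase1l3* a secreted DNase of dendritic cells and macrophages. *H2-DMb2* had the highest r of all genes on that scale, 0.987. Responders lie above all other tumors in *Ciita*, so these pooled values mix the difference between groups with the variation inside them. For the same 5 genes r within groups was 0.932, 0.927, 0.927, 0.920, and 0.909, in that order.

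The genes upstream of the class II promoters were described from lists. Of the 7 genes of the complex that CIITA docks on (*Rfx5*, *Rfxap*, *Rfxank*, *Nfya*, *Nfyb*, *Nfyc*, and *Creb1*), none passed the test between responders and non-responders, with a median log2 fold change of -0.04. *Rfx5*, the DNA-binding subunit of RFX, named after its values were seen, averaged 14.6 CPM in responders (log2 fold change 0.27, SE 0.10, edgeR adjusted p = 0.0967). In the path from interferon-gamma to *Ciita*, 5 of 9 genes were higher in responders than in non-responders and none was lower. *Ifngr1*, a receptor subunit, had a log2 fold change of 0.33 (SE 0.06, edgeR adjusted p = 0.0101), and *Ifng* itself 1.81 (SE 0.38, adjusted p = 0.0139). *Irf1*, a transcription factor that acts at the *Ciita* promoter, rose by a log2 fold change of 0.91 (SE 0.21, edgeR adjusted p = 0.0190), and *Jak1*, a receptor-associated kinase, by 0.38 (SE 0.10, adjusted p = 0.0357). The slopes of this list on *Ciita* within groups were -0.08 to 0.66, and none passed the test.

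Downstream act the proteases and the reductase that prepare peptides and trim the invariant chain. Of 7 such genes 1 passed between responders and non-responders. It was *Ifi30*, a lysosomal thiol reductase, higher in responders with a log2 fold change of 0.44 (SE 0.12, edgeR adjusted p = 0.0332). *Ctss*, the protease that trims the invariant chain, likewise named after its values were seen, had a log2 fold change of 0.30 over non-responders (SE 0.12, edgeR adjusted p = 0.119) and 0.58 over control tumors (SE 0.11, adjusted p = 0.00485). The ubiquitin ligase *Marchf1*, which removes class II from the surface, was at 0.38 over non-responders (SE 0.14, edgeR adjusted p = 0.0931) and at 0.59 over control tumors (SE 0.13, adjusted p = 0.0102), and neither *Marchf8* nor *Cd83* passed in that comparison. For comparison, 3 of 7 class I genes were higher in responders, the transporter gene *Tap1* (log2 fold change 0.66, SE 0.17, edgeR adjusted p = 0.0297), the peptide loading gene *Tapbp* (0.84, SE 0.23, adjusted p = 0.0332), and *Nlrc5*, the class I counterpart of *Ciita* (0.77, SE 0.22, adjusted p = 0.0442). The median of that list was 0.66 and that of the class II members 1.60, and this difference was not tested.

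**Figure D5:**
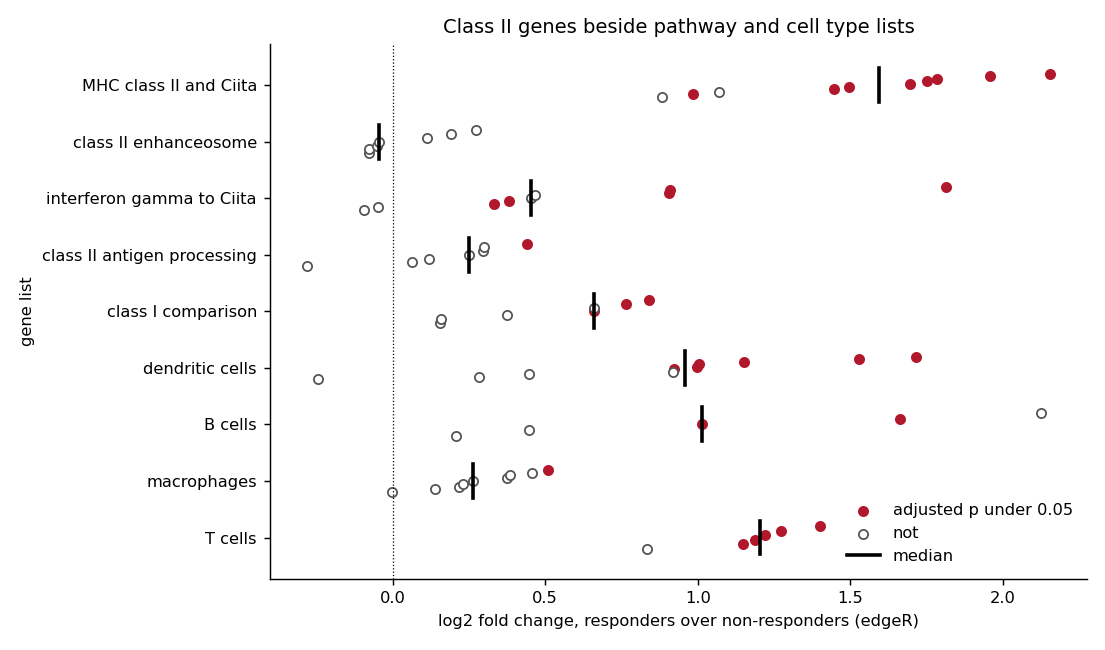
Log2 fold change between responders and non-responders (above 0, higher in responders) for the 10 members and for the genes of 8 pathway and cell type lists, 1 point per gene. Filled red points passed the adjusted p threshold of 0.05, open points did not, and black bars are list medians, 1.60 for the members and -0.04 for the complex that binds class II promoters.

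Markers of cells that express class II were counted from lists. Of 10 dendritic cell genes, 6 were higher in responders than in non-responders, among them *Xcr1* and *Clec9a* of type 1 dendritic cells, with log2 fold changes of 1.72 (SE 0.25, edgeR adjusted p = 0.00475) and 1.53 (SE 0.23, adjusted p = 0.00475). *Zbtb46*, *Cd209a*, *Bst2*, and *Fscn1* did not pass, and *Fscn1* had a log2 fold change of -0.24 (SE 0.10, edgeR adjusted p = 0.124). The list's sum is mostly *Bst2* and *Fscn1*, which averaged 401 and 126 CPM in responders. The summed level of the list was 445 to 709 CPM in responders, 368 to 577 in non-responders, and 349 to 638 in control tumors. Of 5 tested B cell genes *Pax5* and *Cd22* were higher, and the sums were 10.1 to 14.8, 4.82 to 8.64, and 4.82 to 6.51 CPM in the same order. Of 9 macrophage genes 1, *Adgre1*, was higher, at sums of 4059 to 4816, 3447 to 4960, and 3277 to 3962 CPM. T cell genes, which mark cells that do not express class II in mice, were higher for 5 of 6, with sums of 35.2 to 71.3, 19.9 to 25.4, and 15.7 to 37.1 CPM. Of the 52 marker genes tested in 8 lists, none had a slope on *Ciita* within groups that passed the test, and these slopes were -0.61 to 0.66. The T cell genes *Cd3g* (slope 0.598, SE 0.113, edgeR adjusted p = 0.0557) and *Cd8a* (0.492, SE 0.104, adjusted p = 0.0866) were close to the threshold. In the remaining lists 1 of 5 fibroblast genes (*Col1a2*) was higher and none of 7 epithelial, 6 skin, or 4 endothelial genes passed. Skin epidermis genes summed to 7.07 to 955 CPM over all tumors. What these cells contributed to the class II levels was not tested.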

How the data were processed

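RNA from 14 CT26 tumors was enriched for polyadenylated transcripts and sequenced. The authors used STAR for alignment to mm10 and RSEM for quantification, and a STAR release is given for the study's cell lines but not separately for the tumors. The deposited files hold expected counts per gene, which the authors left unnormalized, and TPM and FPKM, which RSEM scaled by gene length and depth. The FPKM values deposited were not used. Coordinates came from GENCODE M21 and promoters from RefSeq.

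Expected counts were rounded. The test was that of edgeR 4.0.16 under R 4.3.3 (TMM, filterByExpr, quasi-likelihood, group means, all 14 tumors, Benjamini-Hochberg over 16287 genes, threshold 0.05). The Ciita slope was tested in the same way with Ciita log2 CPM (prior count 2) added to the groups. Code was tested on simulated data. Alternatives used DESeq2 1.42.0, limma 3.58.1 on log2(TPM + 1) and log2(TPM + 0.1), other scalings and filters, a gene length offset (loess span 0.5), summed or random-effect mice, the compared groups alone, a threshold of 0.01, and each tumor left out. Totals of 33237744 to 48481461 mean that 3 counts are at most 9.03e-06% of a library, which covers counting error only. No 2 libraries agreed within sampling noise.

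Named were all members, up to 4 called genes with the smallest p from each list, any gene counted out of 5 or fewer, and the 5 genes most like Ciita. The members and lists were chosen with earlier results of these data known.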

Additional observations from a re-analysis of the deposited data

How the results depend on the processing

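Of the 10 members, 8 were called higher in responders than in non-responders as reported, and 0 at an adjusted p under 0.01. The other alternatives called 7 to 10, and 7 to 9 with each tumor left out. Against control IgG tumors 7 to 10 were called, and 8 to 10 with each tumor left out. Between non-responders and control IgG tumors no member was called in any alternative, and the reversals were all in this comparison, where no value was called. With the tumors of a mouse summed, the log2 fold change was 0.196 for Ciita and 0.035 for H2-DMa. H2-DMb2, reported at 0.001, was at -0.008 with DESeq2, -0.005 with DESeq2 size factors, -0.011 without a filter, -0.118 on log2(TPM + 1), -0.13 on log2(TPM + 0.1), -0.041 with the length offset, -0.011 with mouse as a random effect, and -0.00018 with the compared groups alone. H2-Ob was at -0.048 and -0.124 on the TPM scales. With each tumor left out the range was -0.25 to 0.344 for Ciita, -0.006 to 0.567 for H2-Aa, -0.19 to 0.059 for H2-DMa, and -0.142 to 0.297 for H2-DMb2. The cause was not tested. Over all genes 827 were higher and 785 lower in responders than in non-responders, against 1969 and 191 on log2(TPM + 1), 1897 and 207 on log2(TPM + 0.1), 1255 and 1304 with DESeq2, 1483 and 1490 with mouse as a random effect, 487 and 202 with the compared groups alone, 689 and 417 without a filter, 766 and 994 with mice summed, and 85 and 66 at 0.01. The TPM scales moved the median of all genes to 0.169 and 0.235. The slopes on Ciita were refitted with mice summed, without the 2 tumors farthest from the median of Ciita, and with each tumor left out, and 6 to 7 of 9 targets were called there. Over all genes 34 slopes were called as reported, 101 with mice summed, 11 without those 2 tumors, and 15 to 74 with each tumor left out. No paired analysis was possible because the groups compared share no replicate number and no mouse.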

Other observations

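In 3 mice both flanks were sampled, which gives values for single mice without a test. In control mouse 14, Ciita was at 12.5 CPM in the left tumor and 4.80 CPM in the right, and 9 of the 10 members were higher on the left (median log2 difference 0.845). In responder mouse 30 the values were 27.7 and 29.4 CPM, with 9 members higher on the right (median -0.20). In non-responder mouse 33 they were 5.24 and 3.67 CPM, with 9 members higher on the left (median 0.16).

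Of the 34 genes whose slope on Ciita within groups passed the test of edgeR, 7 were members. That count was 74 without 14R, 22 without 14L, 20 without 16R, 17 without 26R, and 15 without 20R, 24L, or 35L, and 101 with mice summed. The other genes named here were chosen after their values were seen. Guanylate binding protein genes, which interferon-gamma induces, were among them, with slopes of 0.75 for Gbp4 (SE 0.11, edgeR adjusted p = 0.00857) and 0.73 for Gbp2 (SE 0.11, adjusted p = 0.0122). Cxcl9, a chemokine that interferon-gamma induces, had a slope of 0.66 (SE 0.10, edgeR adjusted p = 0.0197). Leukocyte genes passed as well, Itgal with a slope of 0.495 (SE 0.078, edgeR adjusted p = 0.0197) and Mpeg1 with 0.324 (adjusted p = 0.0418). Cybb had a slope of 0.304 and Ikzf1 of 0.281, each with an edgeR adjusted p of 0.0467. Fcrls, a gene of the Fc receptor-like family, had the single slope below 0, at -0.87 (SE 0.14, edgeR adjusted p = 0.0199).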
